A study of Mus musculus with 9 samples.

Results

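The oxygen-sensing pathway was followed through 8 genes of the count table: the HIF subunits Hif1a, Epas1 and Arnt, the degradation factor Vhl, the prolyl hydroxylases Egln1, Egln2 and Egln3, and the asparaginyl hydroxylase Hif1an. They were taken by gene symbol, and all 8 were found among 24756 rows. Of these, 7 had enough counts to be tested, with 10215 genes tested in all, and Epas1 did not. HIF is a transcription factor made of an alpha subunit, HIF-1 alpha from Hif1a or HIF-2 alpha from Epas1, and the partner ARNT. In the presence of oxygen the prolyl hydroxylases mark the alpha subunit, VHL binds the mark and the protein is destroyed, while the asparaginyl hydroxylase blocks its contact with coactivators. The alpha subunits are therefore controlled mainly as proteins. Some of the hydroxylases are themselves HIF targets, which closes a feedback loop, and in myeloid cells the pathway is known for its part in glycolysis and survival at low oxygen.

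The cells were a mouse acute myeloid leukaemia line made by transducing fetal liver cells with 2 retroviral vectors. All groups carried MLL-AF9, a leukaemogenic fusion protein made constitutively from an MSCV vector that also holds luciferase, and an inducible vector with DsRED and FLT3-ITD, a mutant growth factor receptor whose kinase is active without its ligand. In ON, the cells stayed in 1 µg/mL doxycycline, which keeps FLT3-ITD on. In OFF24 and OFF48 they were washed and held without doxycycline for 24 h and 48 h. Each group had 3 libraries of 3' mRNA sequencing, in which reads come from the ends of polyadenylated transcripts. All groups grew in the same medium with asparagine at 37 degrees and 10% carbon dioxide; the oxygen level is not given in the sources used here. Nor is it given whether the line is 1 clone or whether replicates were grown apart, and the p-values rest on a spread between libraries that may be technical. As in any bulk sample, fewer cells of a type and less RNA per cell cannot be told apart. Removal of the drug and loss of the kinase go together in this design and cannot be told apart. No ON libraries are labelled with 24 h or 48 h, so hours since the wash and hours without doxycycline also go together.

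Library totals ran from 1329296 counts (OFF48 replicate 2) to 4038456 (ON replicate 2), so that a floor of 3 counts stands for 2.26 CPM in the shallowest and 0.743 CPM in the deepest library. CPM here is a gene's count relative to the library total, scaled by TMM, a factor that evens out library composition. Mouse Flt3 had 2 to 10 counts per library, too few to test, and since vector transcripts end outside the receptor's own 3' end, the table gives no check of the transgene or its loss. Of 10 myeloid markers of the labelled cell type, 10 had enough counts to be tested, which needs such counts in the libraries of 1 group only. Csf3r, for example, had 1.83 CPM in ON and 10.8 CPM in OFF48. In ON the 10 myeloid genes ranged from this value of Csf3r to 384 CPM for Cd33. Their summed level moved with the groups, from 1321 to 1512 CPM in the ON libraries to 3009 to 3182 CPM in OFF24 and 5285 to 6249 CPM in OFF48, and the part of this shift in the results that follow was not tested. Markers of other cell types were low. Over all libraries the erythroid genes summed to 0.245 to 1.497 CPM, the hepatocyte genes to 0 to 1.53 CPM and the lymphoid genes to 0.748 to 2.503 CPM, none of them tested, with Hbb-bt, Alas2 and Alb at 0 counts throughout. The 7 genes of megakaryocytes, mast cells and basophils, 2 of them tested, summed to 17.2 to 21.1 CPM in ON, 26.9 to 29.98 CPM in OFF24 and 11.2 to 19.5 CPM in OFF48, with Cpa3 at 0.

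After 24 h without doxycycline, Egln3, Egln1 and Hif1an rose and Hif1a fell. After 48 h Egln3 and Egln1 stood below ON, Hif1a remained low and Egln2 was up. Arnt and Vhl passed the test at neither time. A gene was called when its adjusted p in edgeR's quasi-likelihood test, corrected over all tested genes by Benjamini-Hochberg, was under 0.05. By this measure 4 of the 7 genes changed at 24 h (3 up, 1 down), where 35.3% of all tested genes did, 17.8% rising and 17.4% falling. At 48 h 4 of 7 differed from ON (1 up, 3 down) against 47.4% of all genes (23.4% up, 23.9% down). Between 24 h and 48 h 2 of 7 differed, both down, against 21.1% of all genes (9.99% up, 11.2% down). With changes this widespread, the counts of members at 48 h and between the times lie near those of the whole transcriptome. The libraries of the compared groups did not overlap for 5 of the 7 genes at 24 h, 5 at 48 h and 3 between the times, against 49%, 52.5% and 38% of all genes. Both comparisons with ON use the same ON libraries.

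**Figure D1:**
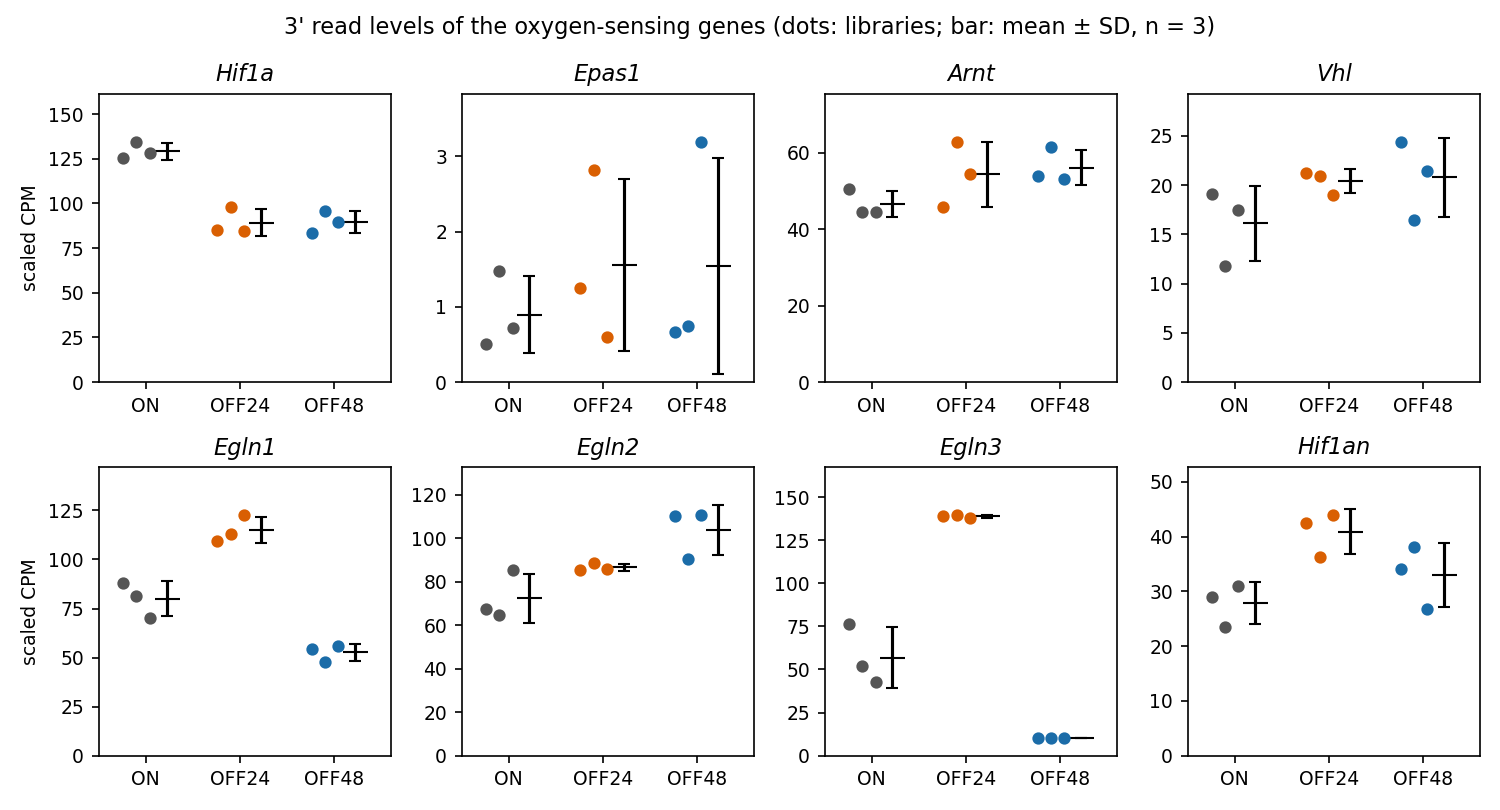
Level of each of the 8 genes in scaled CPM (vertical axes, linear, from 0, differing between panels) in ON, OFF24 and OFF48. Dots are libraries and the bar beside them is the mean ± SD of n = 3; Egln3 stands near 139 CPM in all OFF24 libraries and near 10.4 CPM in all OFF48 libraries.

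Hif1a, which encodes the alpha subunit found in most cell types, had 125, 135 and 128 CPM in ON replicates 1 to 3. It had 85.0, 97.9 and 84.6 CPM in OFF24 and 83.3, 95.8 and 89.7 CPM in OFF48. Every library without doxycycline was thus below every ON library, and the OFF24 and OFF48 libraries overlapped. Hif1a fell by 0.53 ± 0.11 (SE) on the log2 scale at 24 h, a level 1.45-fold lower (edgeR adjusted p = 0.00069), and by 0.54 ± 0.11 at 48 h (edgeR adjusted p = 0.000421). The SE is approximate, the size of the change divided by the square root of the test's F statistic. Between 24 h and 48 h the difference was -0.004 on the log2 scale with an approximate 95% interval from -0.24 to 0.23 (edgeR adjusted p = 0.986). In mm10 (GRCm38) Hif1a lies on chromosome 12 from 73901375 to 73947530, plus strand. The antisense gene Gm15283 covers its whole length and Gm49321 on the same strand covers its 3' end. Neither has a row in the count table and the strand setting of the counting is not given, so reads of these genes cannot be told apart from those of Hif1a.

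Epas1, which encodes the alpha subunit best known from endothelial cells and macrophages, was close to the limit of detection. Its counts were 2, 6 and 2 in ON, 3, 9 and 2 in OFF24, and 2, 1 and 11 in OFF48. The groups overlapped, and the highest library, OFF48 replicate 3, reached 3.19 CPM. Without a filter on low counts the log2 difference from ON was 0.71 ± 0.73 (SE) at 24 h and 0.87 ± 0.74 at 48 h (edgeR adjusted p = 0.54 and 0.428), so a change was not detectable at this depth. Markers of endothelial and stromal cells, counted over 8 genes, summed to 1.27 to 2.14 CPM in ON, 3.75 to 5.83 CPM in OFF24 and 2.99 to 9.58 CPM in OFF48, with Cdh5 and Tek at 0. Their part in the Epas1 counts was not tested.

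Arnt, the partner that both alpha subunits need to bind DNA, had 50.6, 44.6 and 44.6 CPM in ON, 45.8, 62.9 and 54.3 CPM in OFF24, and 53.9, 61.4 and 53.1 CPM in OFF48. The OFF48 libraries lay above the ON libraries, while the OFF24 libraries overlapped them. Neither difference passed the test, at log2 0.23 ± 0.13 (SE, edgeR adjusted p = 0.19) for 24 h and 0.25 ± 0.14 (edgeR adjusted p = 0.139) for 48 h, with approximate 95% intervals from -0.05 to 0.50 and from -0.03 to 0.53. A rise of 2-fold thus lies outside both intervals. Vhl, the substrate-binding part of the ubiquitin ligase that destroys hydroxylated HIF alpha, had 22 to 75 counts per library. It had 19.1, 11.8 and 17.5 CPM in ON, 21.3, 21.0 and 19.0 CPM in OFF24, and 24.4, 16.5 and 21.5 CPM in OFF48. The groups overlapped in both comparisons with ON, and the differences from ON of 0.35 ± 0.20 at 24 h and 0.43 ± 0.20 at 48 h on the log2 scale were not called (edgeR adjusted p = 0.181 and 0.089). The 48 h value for Vhl passed without ON replicate 1 (log2 0.59, edgeR adjusted p = 0.0442) or without OFF48 replicate 2, the shallowest library (log2 0.52, edgeR adjusted p = 0.0439).

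Among the prolyl hydroxylases, Egln3 had the widest range of levels. Egln3, which encodes the enzyme PHD3, had 76.6, 51.7 and 42.5 CPM in ON replicates 1 to 3, 139, 140 and 138 CPM in OFF24, and 10.4, 10.5 and 10.5 CPM in OFF48. The 3 groups did not overlap, with every OFF24 library above and every OFF48 library below ON. The summed markers of megakaryocytes, mast cells and basophils had the same order of group means (18.7, 28.3 and 16.4 CPM), but their ON and OFF48 libraries overlapped. The largest contributors to the sum, Mcpt8 (5.68, 16.8 and 9.42 CPM) and Gata2 (10.6, 7.87 and 2.62 CPM), did not have this order. Among the low ones Pf4 and Ms4a2 had it. The part of these markers in the change of Egln3 was not tested. Egln3 rose by 1.27 ± 0.15 (SE) on the log2 scale at 24 h, or 2.42-fold (edgeR adjusted p = 3.5e-06), and stood 5.49-fold below ON at 48 h (log2 -2.46 ± 0.21, edgeR adjusted p = 2.65e-08). From 24 h to 48 h it fell by 3.73 ± 0.20, or 13.3-fold (edgeR adjusted p = 1.52e-10). Of all 10215 tested genes it ranked the 25th in size of fall between the times, the 133rd in fall from ON to 48 h and the 278th in rise at 24 h. The SD of the OFF48 libraries, 0.0561 CPM, was far under the 2.19 CPM that counting error alone gives for 14 to 36 counts, as was that of OFF24 (0.954 against 6.89 CPM). The agreement within these groups is thus closer than counting allows on average, whereas the ON libraries spread by 17.6 CPM against a counting error of 3.97 CPM.

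Egln1, which encodes PHD2, the main enzyme of HIF hydroxylation at normal oxygen, moved in the same order at a smaller size. Its levels were 88.0, 81.6 and 70.3 CPM in ON, 110, 113 and 123 CPM in OFF24, and 54.5, 47.9 and 55.7 CPM in OFF48. Again no groups overlapped. The change was log2 0.52 ± 0.11 (SE) at 24 h (edgeR adjusted p = 0.0014), -0.59 ± 0.12 at 48 h (edgeR adjusted p = 0.000555) and -1.11 ± 0.12 between the times (edgeR adjusted p = 1.86e-06), the last a 2.16-fold fall. Changes of at least 2-fold were thus seen for Egln3 in all 3 comparisons and for Egln1 between the times, where 5.66% of all tested genes were called at that size, against 8.72% at 24 h and 16.7% at 48 h relative to ON.

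Egln2, which encodes PHD1, did not follow this order. It had 67.4, 64.5 and 85.3 CPM in ON, 85.4, 88.5 and 85.8 CPM in OFF24, and 110, 90.6 and 111 CPM in OFF48. The OFF48 libraries lay above all others, and the lowest OFF24 library was only just above ON replicate 3. Egln2 rose by log2 0.55 ± 0.12 (SE) at 48 h, or 1.46-fold (edgeR adjusted p = 0.00123). The differences of 0.27 ± 0.12 at 24 h and 0.28 ± 0.12 between the times were not called (edgeR adjusted p = 0.0986 and 0.121). The first passed without ON replicate 3 (log2 0.39, edgeR adjusted p = 0.0278) and the second without OFF48 replicate 2 (log2 0.37, edgeR adjusted p = 0.0447).

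**Figure D2:**
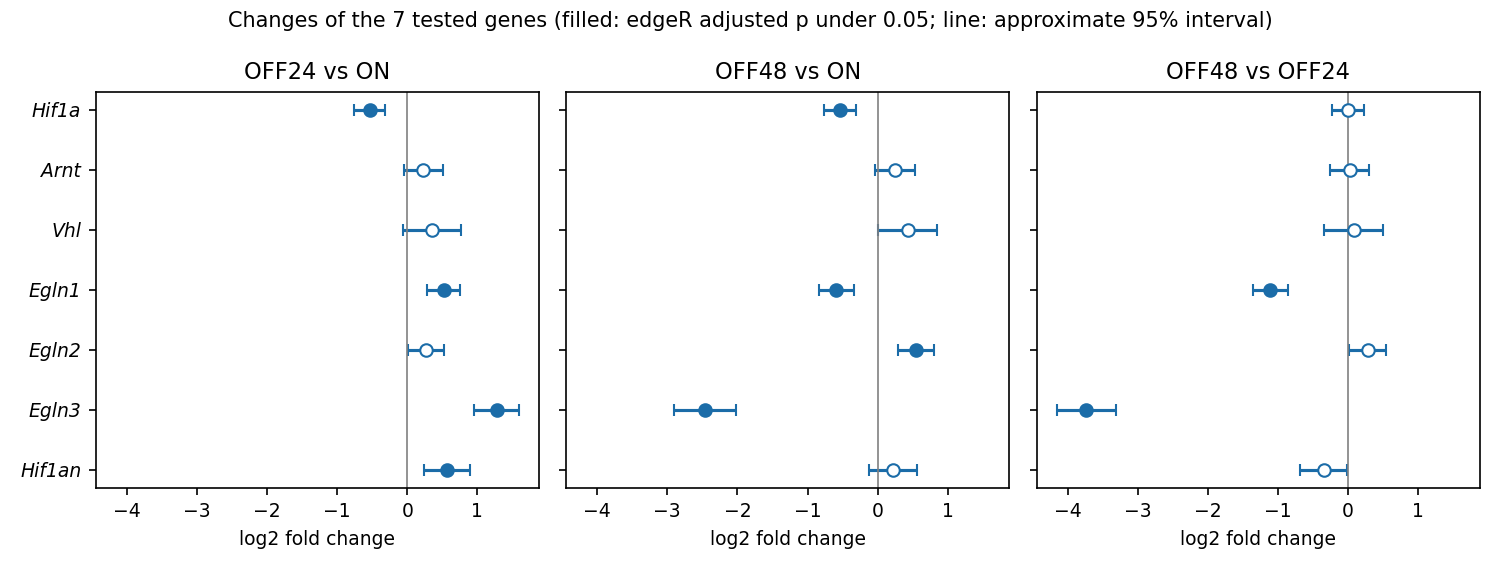
Log2 fold change (horizontal axis) of the 7 tested genes in the 3 comparisons, with approximate 95% intervals. Filled dots passed the edgeR test; Egln3 lies at 1.27 for OFF24 against ON, at -2.46 for OFF48 against ON and at -3.73 for OFF48 against OFF24.

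Because these enzymes all hydroxylate HIF alpha, their 3' reads were also summed. The 3 genes together had 232, 198 and 198 CPM in the ON libraries, 334, 341 and 346 CPM in OFF24, and 175, 149 and 177 CPM in OFF48. Their sum was therefore highest at 24 h and lowest at 48 h, with no overlap. Within the sum, Egln3 gave 26.9% ± 5.82 (SD, n = 3) of reads in ON, 40.8% ± 0.933 in OFF24 and 6.29% ± 0.648 in OFF48. Egln2 gave 34.9% ± 7.28 in ON, 25.4% ± 0.599 in OFF24 and 62.1% ± 1.15 in OFF48, and became the main contributor there. Egln1 held 38.2% ± 2.90, 33.8% ± 1.43 and 31.6% ± 0.531. Gene length does not enter reads taken at transcript ends, but the genes may be captured unequally, so these are shares of reads and not of enzyme. No test was made of the shares.

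**Figure D3:**
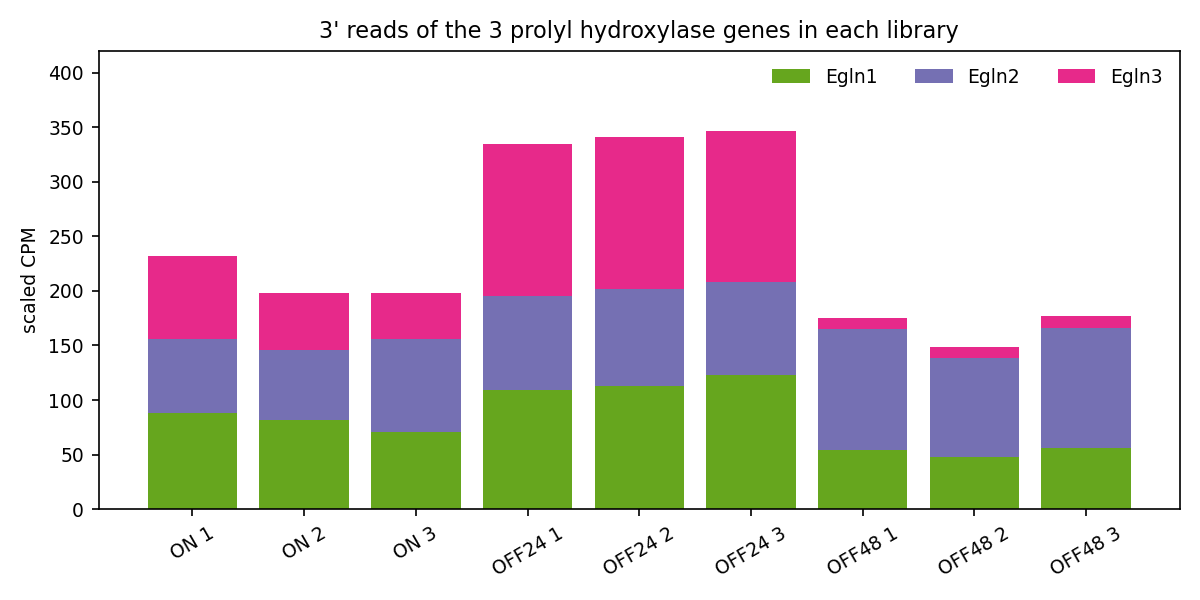
Scaled CPM (vertical axis, from 0) of Egln1, Egln2 and Egln3, stacked for each of the 9 libraries. The total runs from 334 to 346 CPM in OFF24 and from 149 to 177 CPM in OFF48, where Egln3 is a thin band of 5.91% to 7.04%.

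The start regions of the prolyl hydroxylase genes are shown because Egln1 and Egln3 moved in the same order while Egln2 did not. Each runs from 250 bases before to 50 bases after the annotated start, 5′ to 3′ on the gene's strand, from RefSeq on GRCm38.p6. Capitals mark ACGTG and GCGTG on either strand, the letters at the core of HIF response elements; on the opposite strand they read CACGT and CACGC.
Egln3, chr12:54203825-54204124, minus strand: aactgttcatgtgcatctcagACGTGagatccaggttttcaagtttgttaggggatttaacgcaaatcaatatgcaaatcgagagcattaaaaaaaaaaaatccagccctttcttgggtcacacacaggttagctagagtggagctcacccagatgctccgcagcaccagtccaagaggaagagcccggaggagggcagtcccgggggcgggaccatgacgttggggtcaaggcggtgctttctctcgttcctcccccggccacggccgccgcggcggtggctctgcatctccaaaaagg
Egln1, chr8:124949205-124949504, minus strand: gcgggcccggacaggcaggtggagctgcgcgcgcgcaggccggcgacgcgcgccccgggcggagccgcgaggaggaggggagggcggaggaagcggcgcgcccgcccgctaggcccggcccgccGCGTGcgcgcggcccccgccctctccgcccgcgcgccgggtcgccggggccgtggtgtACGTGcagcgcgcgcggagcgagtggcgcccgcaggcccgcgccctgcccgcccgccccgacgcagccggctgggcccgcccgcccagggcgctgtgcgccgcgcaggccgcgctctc
Egln2, the upstream of 2 annotated starts, chr7:27166753-27167052, minus strand: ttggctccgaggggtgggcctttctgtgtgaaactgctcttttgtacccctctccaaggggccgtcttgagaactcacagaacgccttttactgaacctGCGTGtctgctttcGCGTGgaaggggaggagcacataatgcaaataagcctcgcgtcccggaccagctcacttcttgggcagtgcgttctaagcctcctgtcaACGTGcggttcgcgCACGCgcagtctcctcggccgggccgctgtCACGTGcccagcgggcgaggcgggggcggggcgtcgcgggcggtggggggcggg
Egln3 holds 1 ACGTG, whose first base is at -229 from the start, and no GCGTG. Egln1 holds 1 ACGTG and 1 GCGTG, and the upstream window of Egln2 holds 3 of each, with a pair of the ACGTG matches overlapping on both strands as CACGTG. The window of the other Egln2 start, not printed, holds 1 GCGTG and 0 ACGTG. Of 32851 such windows in the genome 19.6% hold ACGTG, 32.4% hold GCGTG and 43.8% hold either. In 8.9% of windows there are 3 or more matches in all. Windows with either are richer in G and C (median 58.7% against 52.7% for all), as is that of Egln1 at 86.0%. Of the 8 genes, 7 had a window in the table; Epas1 had none. Hif1a held 3 ACGTG, a pair of them overlapping on both strands as CACGTG, Arnt 1 GCGTG, and Vhl and Hif1an neither. These matches describe the letters of the windows only.

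Hif1an, which encodes the asparaginyl hydroxylase FIH, had 29.0, 23.5 and 31.1 CPM in ON, 42.5, 36.3 and 43.9 CPM in OFF24, and 34.1, 38.2 and 26.7 CPM in OFF48. The OFF24 libraries lay above the ON libraries, and the OFF48 libraries overlapped both groups. Hif1an rose by log2 0.56 ± 0.16 (SE) at 24 h, or 1.48-fold (edgeR adjusted p = 0.00838). At 48 h the difference from ON was 0.22 ± 0.17 (edgeR adjusted p = 0.3), and between the times it was -0.35 ± 0.16 (edgeR adjusted p = 0.136). The rise at 24 h was not called without ON replicate 2 (log2 0.43, edgeR adjusted p = 0.0523) or without OFF24 replicate 3 (log2 0.49, edgeR adjusted p = 0.0576).

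The positions of the other members in GRCm38 are chromosome 17 from 86753700 to 86833410 for Epas1, chromosome 3 from 95434388 to 95497240 for Arnt, chromosome 6 from 113623959 to 113631633 for Vhl and chromosome 19 from 44562850 to 44576274 for Hif1an, all on the plus strand. Egln1 spans 124908587 to 124949324 on chromosome 8, Egln2 27158658 to 27166802 on chromosome 7 and Egln3 54178981 to 54203860 on chromosome 12, all on the minus strand. The last 400 bases of none of the 8 genes matched another gene's transcript at 95% identity over 100 bases. Egln2 overlaps Cyp2t4 by 11 bases at its 3' end on the opposite strand, and Cyp2t4 had 0 counts in every library.

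The genes nearest in pattern were sought among 7720 other tested genes with a mean of at least 10 CPM. The measure was the root mean square difference of log2 CPM over the 9 libraries, each gene centred on its own mean. For Egln3 these were Bnip3, a receptor for mitophagy, at 0.22, the integrin subunit Itgb7 at 0.29 and Ankrd37 at 0.32, where the median over all genes compared was 1.55. Bnip3 had 120 ± 36.3 CPM (SD, n = 3) in ON, 270 ± 13.5 in OFF24 and 27.6 ± 3.04 in OFF48. For Egln1 they were Pgm2 at 0.10, the glycogen synthase Gys1 at 0.12 and Trappc6a at 0.13 (median 0.55). Pgm2 had 107 ± 9.16, 161 ± 4.55 and 68.6 ± 0.977 CPM. Since these genes were chosen for their likeness, the order of the groups they share with Egln3 or Egln1 is fixed by that choice. Bnip3, Ankrd37 and Gys1 also belong to a list of HIF targets counted below, so they are not separate from it. Itgb7, Pgm2 and Trappc6a are in none of the lists. The nearest to Hif1a was the mitochondrial channel Vdac3 (0.07), followed by the phosphatase Ptpn1 and by Nrbf2, whose 3' end is shared with Gm6740. Those of Egln2 were Xndc1, Spopl and Rprd2 (0.08 to 0.09), and those of Hif1an were S100pbp, Rpap2 and Asnsd1 (0.13). For Hif1a, Egln2 and Hif1an, which vary little, the median over all genes was 0.36 to 0.40, so likeness tells less.

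**Figure D4:**
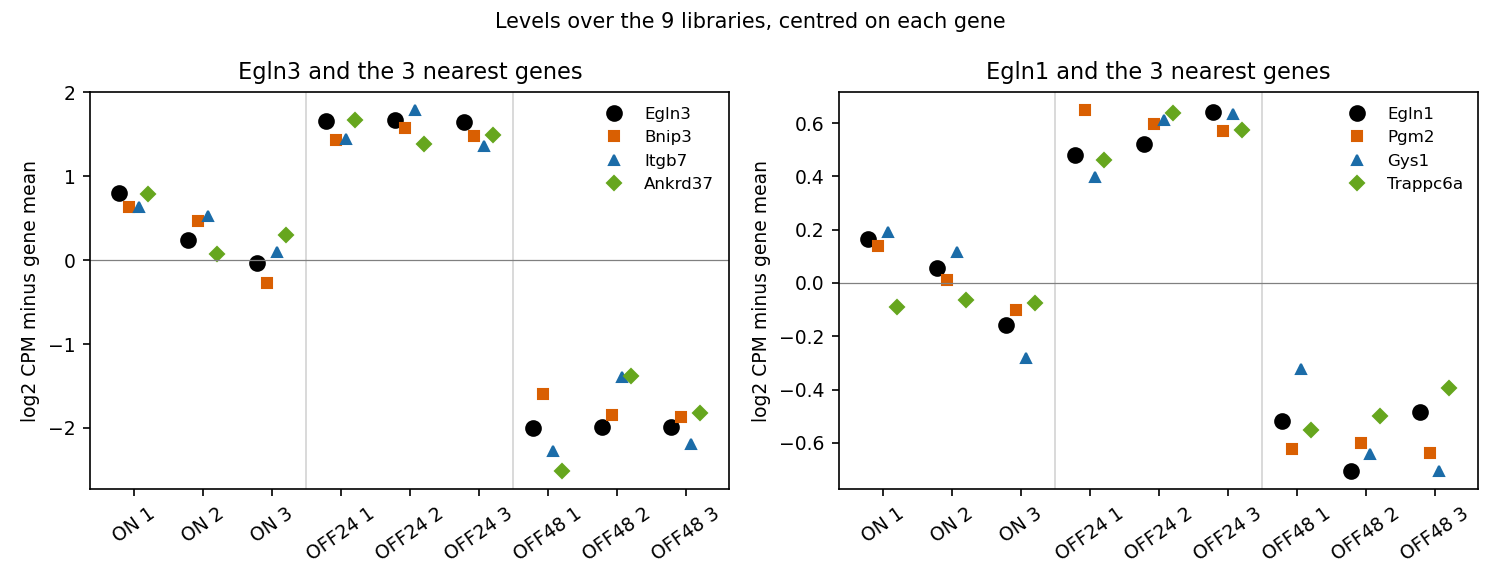
Log2 CPM minus the gene's mean (vertical axes) in each of the 9 libraries for Egln3 (left) and Egln1 (right) with the 3 genes of smallest root mean square difference from each. The genes were chosen for this likeness, and all are highest in the OFF24 libraries and lowest in the OFF48 libraries.

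The other genes of the pathway were read from lists of partners and targets. Of 20 partners of HIF and VHL, such as subunits of the VHL ligase, coactivators and chaperones, 17 were tested. At 24 h 5 fell and 0 rose (29.4%, near the 35.3% of all genes; median log2 -0.19 against 0.03). Hsp90aa1, a chaperone that holds HIF alpha, had 1788 ± 120 CPM (SD, n = 3) in ON and 893 ± 137 CPM in OFF24, a log2 difference of -1.001 (SE 0.116, edgeR adjusted p = 2.44e-06), its cochaperone Ptges3 fell by 0.71 ± 0.10, and the ubiquitin ligase Siah2, which acts on prolyl hydroxylases, fell by 1.12 ± 0.20. Only 3 were called without ON replicate 3, without OFF24 replicate 2 or without OFF24 replicate 3. At 48 h 9 fell and 3 rose (70.6% against 47.4%; median log2 -0.43 against 0.01), with Hsp90ab1 at -1.68 ± 0.10, Hsp90aa1 at -1.53 ± 0.12 and Ptges3 at -0.75 ± 0.10. The 3' end of Hsp90ab1 is shared with Gm6368, so its level is uncertain.

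Genes known as HIF targets were counted in 2 lists that leave out the HIF prolyl and asparaginyl hydroxylases. Of 20 for glucose uptake and glycolysis, 11 rose and 2 fell at 24 h (65%, median log2 0.39), and 4 rose and 15 fell at 48 h relative to ON (95%, median -1.36). Between the times 1 rose and 15 fell (80%, median -1.38). Of all tested genes 35.3%, 47.4% and 21.1% were called in these comparisons. Pfkfb4, which sets the level of a glycolytic activator, rose by 0.99 ± 0.14 (SE, log2) at 24 h, as did the kinase Pdk1 (0.83 ± 0.12) and the glycolytic enzyme gene Pgk1 (0.71 ± 0.11). The lowest p-values at 48 h were those of Ldha, lactate dehydrogenase (-2.02 ± 0.10), Aldoc, an aldolase (-2.30 ± 0.15), and Eno1, an enolase (-1.56 ± 0.11) whose 3' end is shared with Eno1b. Summed over its 20 genes, this list had 7709 to 8719 CPM in ON, 10340 to 10590 in OFF24 and 3929 to 4329 in OFF48. Its sum was thus highest at 24 h and lowest at 48 h, the order seen for Egln3 and Egln1. Not every gene of the list had this order. The 4 that rose at 48 h, Pfkfb4 among them, stood above ON there, and some others were highest in ON.

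The second list held 31 other targets. Of 26 tested, 12 rose and 9 fell at 24 h (80.8%, median log2 0.21), 4 rose and 17 fell at 48 h (80.8%, median -1.19), and 2 rose and 20 fell between the times (84.6%, median -1.09). The chemokine receptor Cxcr4 (log2 1.31 ± 0.10, SE) and the mitophagy receptor Bnip3l (0.90 ± 0.11) rose at 24 h, and Car12, a carbonic anhydrase, fell by 2.19 ± 0.29. At 48 h reads of Higd1a (-1.85 ± 0.11), Fam162a (-2.27 ± 0.14) and Ak4 (-5.09 ± 0.32), which encode mitochondrial proteins, were down. OFF48 libraries had a mean Ak4 level of 1.32 CPM (SD 0.273, n = 3), near the floor, against 45.2 CPM (SD 12.2) for ON. Over all tested genes 35.3%, 47.4% and 21.1% were called in the 3 comparisons, with medians of 0.03, 0.01 and 0.00. Summed over its 31 genes, the second list had 3457 to 4271 CPM in ON, 4273 to 4443 in OFF24 and 2064 to 2211 in OFF48.

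Other enzymes of the same oxygen-dependent class, among them histone and DNA demethylases, were also counted. Of 23, 21 were tested, with 7 up and 1 down at 24 h (38.1%, median log2 0.30) and 7 up and 3 down at 48 h (47.6%, median 0.26), where 35.3% and 47.4% of all genes were called. Between the times 2 were up and 6 down (38.1% against 21.1% of all genes, median 0.04). Tet2, which oxidises methylated DNA, went from 39.4 ± 5.47 to 81.4 ± 9.37 CPM at 24 h (log2 1.03 ± 0.13, edgeR adjusted p = 5.9e-06), and the histone demethylases Kdm5b (0.90 ± 0.15) and Kdm7a (0.71 ± 0.14) rose with it. At 48 h Kdm7a was at 1.10 ± 0.14, while the RNA demethylase Alkbh5 (-0.84 ± 0.13) and Jmjd6 (-0.72 ± 0.12) were down.

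**Figure D5:**
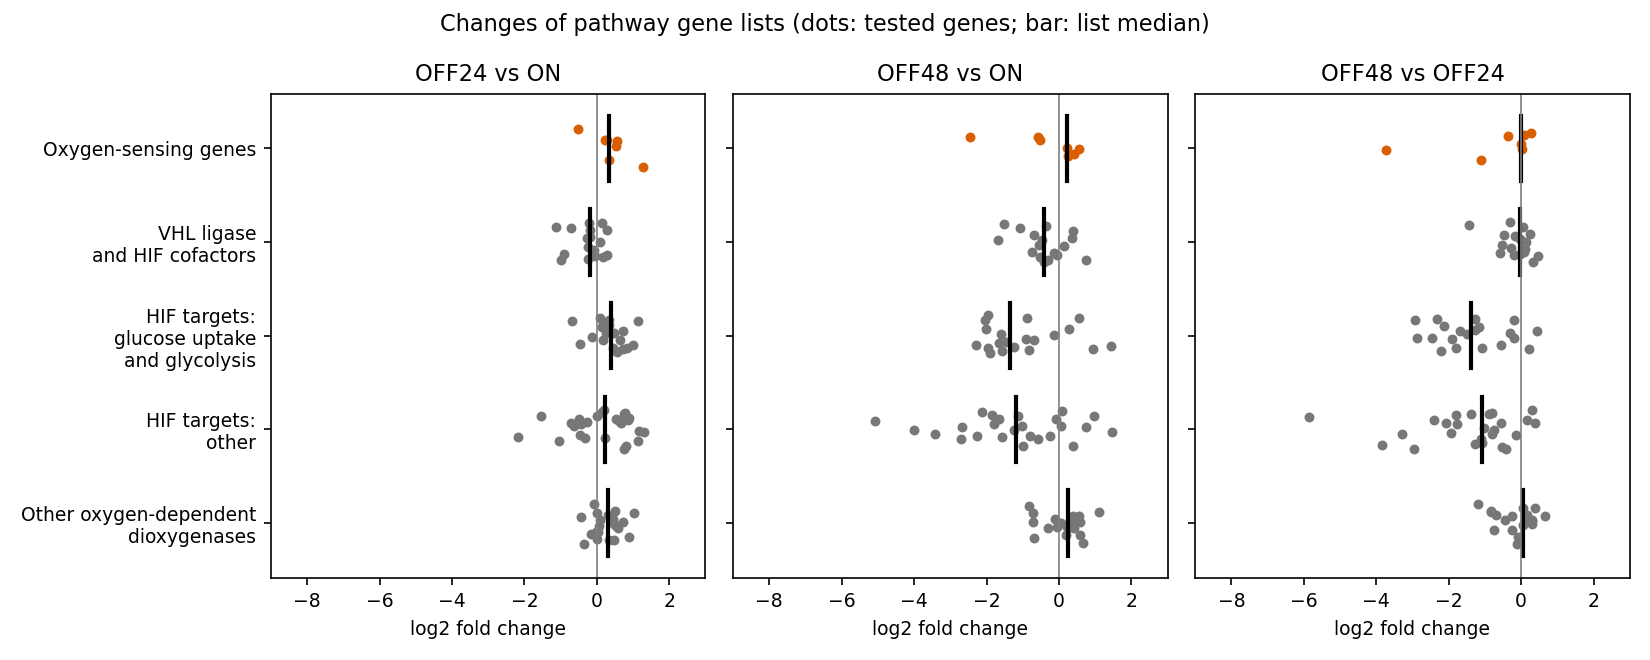
Log2 fold change (horizontal axis) of each tested gene of the 5 lists in the 3 comparisons; dots are genes, spread vertically for display, and bars are list medians. Genes with no count in a compared group have no finite fold change and are not drawn, but count in the medians. The glycolysis list has medians of 0.39, -1.36 and -1.38.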

How the data were processed

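Gene expression was measured by Lexogen QuantSeq 3' sequencing in 9 libraries, 3 per group, per the labels' protocols. The submitters' processing notes name HISAT2 2.0.4, Subread 1.5.0-p3 with featureCounts, limma 3.42.2 and mm10, without roles; the sources used here give no annotation, strand setting or filter. A table deposited by the authors gives, for each gene symbol, the unnormalised read count of each library. The other deposited table, with log2 values of 10552 genes that its name ascribes to voom and limma and whose libraries share 1 maximum, served only as an alternative.

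Tests used edgeR 4.0.16 (R 4.3.3): filterByExpr by group, TMM, and a robust quasi-likelihood fit of 1 mean per group to all 9 libraries (6 residual degrees of freedom). The common biological coefficient of variation was 0.105. On data simulated for OFF24 against ON (10054 genes), 85.9% of 99 2-fold and 98.0% of 99 4-fold changes were recovered. The simulation gave every gene the same spread and changed far fewer genes than were called in the data. It held no changes under 2-fold, so it gives no recovery for changes as small as those of most members against ON. Group levels are means of scaled CPM. No libraries were identical, and replicate pairs all varied beyond counting error, with chi-square over its degrees of freedom at 1.99 to 6.99. Floors cover counting error only, and PCR copies are not removed.

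The members and lists were chosen with earlier results of these data known. Named list genes are the 3 of smallest p, among those called, in each list and comparison with ON; for each member called in a comparison with ON the 3 genes nearest in pattern are named; the marker genes were named in addition. Some genes of the lists are not reported here by name. Positions and 3' ends come from GENCODE M21, compared with BLAST 2.17.0.

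The replicate numbers come from the sample titles. Between ON and OFF48, deviations from the group means of same-numbered libraries correlated at 0.15 to 0.474 across genes; between ON and OFF24 at 0.018 to 0.24, and between OFF24 and OFF48 at -0.087 to 0.194. Only ON with OFF48 reached a minimum of 0.1 for every same-numbered pair. Between these groups, however, differently numbered libraries correlated at up to 0.248, and only 2 of 6 libraries correlated best with their own number. The numbers are thus not shown to mark pairs, and the fit without a block is reported. Alternatives were RLE, upper quartile and library-size scaling, other filters, DESeq2 1.42.0, limma-voom (limma 3.58.1), a fit to the compared groups alone, a replicate block, leaving out each library, and the deposited log2 values.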

Additional observations from a re-analysis of the deposited data

Results flagged for a closer look

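Egln3 and Egln1 differed between 24 h and 48 h without doxycycline, by the direct test of OFF48 against OFF24 in edgeR. Hours in culture since the wash differ between these groups too, and their part was not tested. For Egln3 the difference was -3.73 on the log2 scale (adjusted p = 1.52e-10), with all 3 OFF24 libraries above and all 3 OFF48 libraries below the ON libraries. For Egln1 it was -1.11 (adjusted p = 1.86e-06), with the same order of libraries.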

How the results depend on the processing

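Under the 19 alternatives, the calls of Egln3 and Egln1 in all 3 comparisons, of Hif1a against ON at both times and of Egln2 at 48 h held, and so did their directions. Egln3 ranged from 1.11 to 1.53 (log2) at 24 h, from -2.62 to -2.18 at 48 h and from -3.77 to -3.69 between the times. The members called numbered 3 to 5 at 24 h, 4 to 5 at 48 h and 2 to 3 between the times. The share of all genes called is not given here for every alternative, so such counts cannot be set against it. With the replicate block they were 4, 4 and 2, and the block changed no member's call.

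The partner list at 24 h had 5 genes called, but 8 with no filter on low counts, and 3 with the deposited log2 values. The glycolysis list had 13 called at 24 h but 6 with the deposited log2 values. Only differences near 0, none called, changed sign. Hif1a between the times (-0.004) stood at 0.0063 with RLE, 0.011 with library size scaling, 0.0054 with no filter, 0.0058 with DESeq2, 0.0078 with the replicate block and 0.0074 with the deposited values. Arnt stood at -0.022 with upper quartile scaling and -1e-04 with the filter at 10 CPM, Siah2 at -0.0025 with upper quartile scaling. At 24 h Alkbh5 stood at 0.029 with upper quartile scaling, 0.0052 with the filter at 10 CPM and 0.018 with the deposited values, and Jmjd6 at -0.0077 with no filter. The causes were not tested.

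Leaving out 1 library in turn, the range was -0.027 to 0.088 for Hif1a, -0.063 to 0.16 for Arnt, -0.028 to 0.19 for Vhl, -0.13 to 0.21 for Siah2 and -0.076 to 0.037 for Ptges3 between the times, -0.12 to 0.078 for Alkbh5 and -0.03 to 0.0597 for Jmjd6 at 24 h, and -0.0084 to 0.13 for Kdm5b at 48 h. The partner list then had 3 to 6 genes called at 24 h and 2 to 5 between the times, and the dioxygenases 5 to 8 between the times. Depth limits Epas1, with 1 to 11 counts per library, which was not tested.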

Other observations

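The ON libraries were not alike for Egln3: replicate 1 had 76.6 CPM, replicate 2 51.7 CPM and replicate 3 42.5 CPM, or 301, 211 and 119 counts. Bnip3, the gene nearest to it in pattern, had 149, 132 and 79.2 CPM in the same libraries, and Gys1, near Egln1, had 129, 122 and 92.4 CPM. Both were chosen for likeness over libraries that include these, so the shared order follows in part from that choice. Of the other near genes, Itgb7 and Pgm2 had the same order. Ankrd37 (15.8, 9.31 and 11.1 CPM) and Trappc6a (100.5, 102.4 and 101.7 CPM) did not. The mitophagy gene Bnip3l and the chemokine receptor gene Cxcr4, both in the target list, stayed above ON at 48 h (log2 0.75 ± 0.11 and 1.46 ± 0.10, SE, edgeR adjusted p = 2.06e-05 and 1.4e-09), as did Pfkfb4 (1.44 ± 0.14, edgeR adjusted p = 1.12e-07), while Egln3 and Egln1 were below it.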
